A study of Mus musculus with 24 samples.

Results

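The 10 genes described here, Atf4, Atf3, Atf5, Ddit3, Nupr1, Asns, Chac1, Trib3, Ddit4 and Sesn2, are regulators and targets of the stress response that runs through the transcription factor ATF4. They were chosen by name, and every array probe that carries such a name was used. This gave 15 probes for 10 genes, all of which were bright enough to be tested, of 23966 genes measured in the liver. Atf4, Atf5, Ddit3, Asns and Nupr1 had a pair of probes each, and the other genes had 1.

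Liver RNA came from 24 wild-type males of the strain C57Bl/6J, all aged 8 weeks and on the same chow, with 1 array for each mouse and 6 mice in a group. The groups were fed mice drinking tap water, fed mice drinking water with 20% glucose, fed mice drinking water with 20% fructose, and fasted mice. Each treatment lasted 24 hours and all livers were taken at ZT16, that is 16 hours after lights on. The question asked of these genes was which of them sugar and fasting change alike. The fed mice on water are the control of every comparison with water, so those comparisons share the same 6 animals and their differences are given side by side.

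ATF4 is a basic leucine zipper factor. Its messenger RNA is translated mainly when kinases such as GCN2, which senses missing amino acids, or PERK, which senses unfolded protein in the endoplasmic reticulum, phosphorylate the initiation factor eIF2. ATF4 then binds C/EBP-ATF elements next to genes for amino acid synthesis and transport, other stress factors, and brakes on the growth kinase complex mTORC1. Because ATF4 is controlled in translation, its messenger RNA, which arrays measure, need not follow its protein. In the liver the pathway is known for its response to amino acid shortage and for the hormone FGF21.

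The core of the C/EBP-ATF element, TGATGNAA, was searched on both strands (TTNCATCA on the reverse) in the RefSeq promoter windows of GRCm38.p6, which span 300 bases around each start. It was found in 1304 of 32851 windows (3.97%) and in the windows of 5 of the 10 genes: Atf3, Chac1, Trib3, Asns and Nupr1. The match of Trib3 lies after the transcription start, 15 to 22 bases in. The other matches lie before it, at 23 bases upstream for Asns, 110 for Atf3 and for Nupr1, and 193 for Chac1. They are shown because these 4 genes did not follow a common pattern in the liver. The stretches are chr1:191183400-191183479 on the minus strand for Atf3, chr2:119351013-119351092 on the plus strand for Chac1, chr6:7693210-7693268 on the minus strand for Asns and chr7:126625537-126625616 on the minus strand for Nupr1. Each is written in the direction of its gene, with the element in capitals:
Atf3: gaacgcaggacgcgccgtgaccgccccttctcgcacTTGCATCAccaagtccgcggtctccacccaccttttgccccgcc
Chac1: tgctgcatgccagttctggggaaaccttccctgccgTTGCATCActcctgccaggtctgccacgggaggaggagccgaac
Asns: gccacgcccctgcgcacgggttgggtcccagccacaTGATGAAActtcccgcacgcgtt
Nupr1: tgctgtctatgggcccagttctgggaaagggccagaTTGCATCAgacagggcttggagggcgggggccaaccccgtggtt
Atf3, Chac1 and Nupr1 carry the same 8 letters, TTGCATCA, and Asns carries TGATGAAA on the other strand. Neither the cyclic AMP element TGACGTCA (1.79% of all windows) nor the endoplasmic reticulum stress element (0.119% of all windows) occurred in a window of the 10 genes. A match is a description of letters and no evidence of binding.

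Levels are log2 signals relative to the 75th percentile of the array, so they are compared between groups for 1 probe and not between genes. Differences are log2 fold changes with the standard error of the limma fit over all 24 arrays. A difference was called at a Benjamini-Hochberg adjusted p under 0.05 over 36229 probes. The labels say that each array is an individual mouse, so the spread is that between animals. Between 32516 and 36272 probes were well above background on an array, and arrays of a group correlated at 0.984 or more across probes. The liver label was checked on 10 hepatocyte markers, of which 10 were well above background on all 24 arrays.

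Among the 10 genes, counted by their brighter probe, fasting changed 6 against water, where 42.1% of all probes were called. Atf5, Asns, Trib3, Ddit4 and Sesn2 rose (21.7% of all probes rose) and Ddit3 fell (20.4% fell). Glucose raised 2, Atf5 and Nupr1, where 0.765% of all probes were called, 0.409% rose and 0.356% fell. Fructose raised the same 2, Atf5 and Nupr1, where 0.809% of all probes were called, 0.486% rose and 0.323% fell. Atf5 was thus the member called higher under all 3 treatments. The share of all probes called so is not given, and it cannot exceed the 0.409% that rose with glucose. Groups stood above water without overlap for 5 genes with fasting (12.2% of all probes did), 3 with glucose (Atf5, Nupr1 and Asns, against 0.916% of all probes) and 1 with fructose (Atf5, against 1.05%). The median difference over the 10 genes was 0.35 for fasting, 0.39 for glucose and 0.15 for fructose, against 0.02, 0.00 and -0.01 over all probes.

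**Figure D1:**
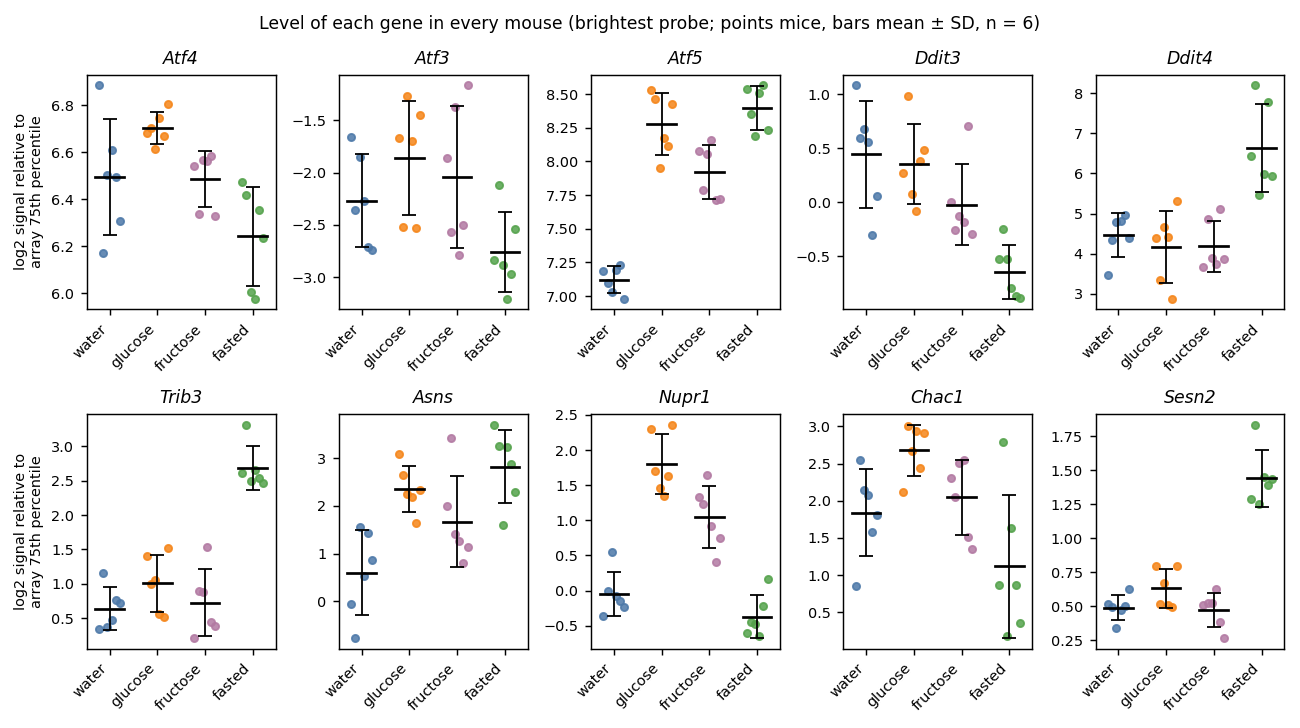
Level of each of the 10 genes in every mouse, on the vertical axis as log2 signal relative to the array's 75th percentile, for the 4 groups on the horizontal axis; points are mice, bars the mean ± SD of 6 mice, and each panel has its own scale. Atf5 stands above water without overlap in all 3 treated groups, Asns in the glucose and fasted groups, and Nupr1 in the glucose group. Trib3, Ddit4 and Sesn2 do so in the fasted group. Nupr1 in the fructose group overlaps with water.

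Atf5 codes for a leucine zipper factor related to ATF4 and abundant in liver. Its level at the brighter probe (chr7:52067627-52067686, minus strand, mm9) was 7.12 ± 0.10 (SD, n = 6) in water mice, with a lowest value of 6.98, a median of 7.14 and a highest of 7.23. It was 8.28 ± 0.23 (lowest 7.95, median 8.30, highest 8.53) with glucose and 7.92 ± 0.20 (lowest 7.71, median 7.92, highest 8.16) with fructose. In fasted mice it was 8.40 ± 0.17 (lowest 8.19, median 8.43, highest 8.57). Every treated mouse lay above every water mouse.

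Atf5 was 2.43-fold higher in fasted than in water mice (log2 1.28 ± 0.10 SE, adjusted p = 1.33e-09). Glucose raised it 2.23-fold (1.16 ± 0.10, adjusted p = 1.09e-06) and fructose 1.74-fold (0.80 ± 0.10, adjusted p = 0.000344). The dimmer probe, 31 bases away, gave 1.40, 1.24 and 0.92 for fasting, glucose and fructose, all called and all without overlap. Fasted and glucose mice were not told apart: the difference was 0.12 with a 95% interval from -0.09 to 0.34 (adjusted p = 0.372). Fasted mice were higher than fructose mice by 0.48 ± 0.10 (adjusted p = 0.000588) at the brighter probe. This call was lost after quantile normalization and in the authors' deposited table, where the adjusted p reached up to 0.113 and the difference went down to 0.19. The dimmer probe gave 0.48 ± 0.11 (adjusted p = 0.000758) and was called in 21 of 21 alternatives, with differences down to 0.28 and adjusted p up to 0.0231. For the difference of glucose and fructose mice, -0.36, the interval ran from -0.57 to -0.14 and the adjusted p was 0.434.

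Nupr1 codes for a small stress-induced nuclear protein that binds chromatin. At its brighter probe (chr7:133766978-133767037, minus strand, mm9) water mice had -0.05 ± 0.32 (lowest -0.36, median -0.12, highest 0.54). Glucose mice had 1.80 ± 0.43 (lowest 1.34, median 1.67, highest 2.36) and fructose mice 1.04 ± 0.44 (lowest 0.40, median 1.07, highest 1.64). Fasted mice had -0.37 ± 0.30 (lowest -0.65, median -0.46, highest 0.17). All glucose mice lay above all water mice, while the lowest fructose mouse lay below the highest water mouse.

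Glucose raised Nupr1 3.60-fold (log2 1.85 ± 0.21, adjusted p = 2.7e-05) and fructose raised it 2.13-fold (1.09 ± 0.21, adjusted p = 0.0146). The fructose call was lost in a fit on the water and fructose arrays alone (adjusted p = 0.0537). Fasted mice differed from water by -0.32 ± 0.21 (adjusted p = 0.238), with an interval from -0.76 to 0.11. Nupr1 was 4.50-fold lower in fasted than in glucose mice (-2.17 ± 0.21, adjusted p = 1.53e-08) and 2.67-fold lower than in fructose mice (-1.41 ± 0.21, adjusted p = 7.7e-06), in both cases without overlap. Since each group is set against the same water mice, these are also the tests of whether the brighter Nupr1 probe responded differently to sugar and to fasting.

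The dimmer Nupr1 probe gave another picture. It was designed to a separate transcript model (chr7:133769416-133769475, minus strand, mm9), 2378 bases from the brighter one. The RefSeq gene is 2225 bases long in GRCm38.p6, less than this gap. Both probes therefore cannot lie within a span of that length, and the dimmer one is not a repeat measure of the same transcript. Its level was -3.55 ± 0.21 with water, -3.67 ± 0.13 with glucose, -3.53 ± 0.30 with fructose and -3.09 ± 0.19 in fasted mice. It rose 1.38-fold with fasting (log2 0.46 ± 0.12, adjusted p = 0.00354) without overlap, and was not called with glucose (-0.12, adjusted p = 0.798) or fructose (0.03, adjusted p = 0.951). The probe is dim, with background-corrected intensities of 19 to 41. The fasting difference was called in 21 of 21 alternatives but ranged from 0.14 to 0.51 (adjusted p 0.000345 to 0.0367). At this probe fasted mice were above glucose mice by 0.58 ± 0.12 (adjusted p = 0.000419) without overlap. They were above fructose mice by 0.43 ± 0.12 (adjusted p = 0.00542). In the alternatives these differences went down to 0.20 and 0.20 and stayed called. The brighter probe was called lower in both comparisons. Which transcripts each probe reads was not tested.

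**Figure D2:**
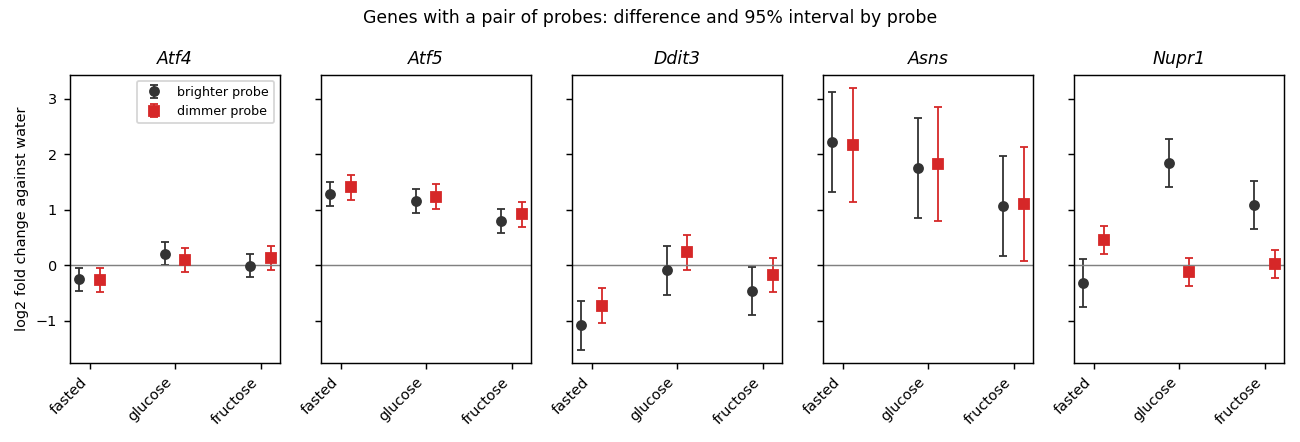
Log2 fold change against water (vertical axis) in fasted, glucose and fructose mice for the 5 genes with a pair of probes; circles are the brighter and squares the dimmer probe, and bars are 95% intervals of the limma fit. The probes of Atf5 and of Asns lie close together, while those of Nupr1 part, at 1.85 against -0.12 with glucose. The dimmer Nupr1 probe was designed to a separate transcript model.

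Atf4 itself moved little. At the brighter probe (chr15:80087902-80087961, plus strand, mm9) its level was 6.50 ± 0.25 with water, 6.70 ± 0.07 with glucose, 6.49 ± 0.12 with fructose and 6.24 ± 0.21 in fasted mice. Fasted mice differed from water by -0.25 ± 0.10 (adjusted p = 0.0506), a value just outside the threshold that was called in 11 of 22 alternative analyses (adjusted p 0.00976 to 0.153), among them those without water mouse 2 or 6 or fasted mouse 1, 2 or 5. With slide as a block its adjusted p was 0.0305. The dimmer probe, 763 bases away, gave -0.27 ± 0.11 (adjusted p = 0.045) and lost the call in 11 of 21 (adjusted p 0.00737 to 0.146), among them those without water mouse 1, 3, 4 or 5 or fasted mouse 3, 4 or 6. Glucose and fructose differed from water by 0.21 ± 0.10 (adjusted p = 0.457) and -0.01 ± 0.10 (adjusted p = 0.982).

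Against glucose, fasted mice had less Atf4 at both probes, by -0.46 ± 0.10 (adjusted p = 0.000707) without overlap and by -0.36 ± 0.11 (adjusted p = 0.00757). Against fructose the dimmer probe was lower by -0.40 ± 0.11 (adjusted p = 0.00377) and the brighter one was not called (-0.24 ± 0.10, adjusted p = 0.0568), though 9 of 22 alternatives called it (adjusted p 0.0051 to 0.147), among them the fit with slide as a block (adjusted p = 0.0349) and those without fructose mouse 2 or 6 or fasted mouse 1 or 2. The largest of these differences is a factor of 1.38, smaller than any called change of Atf5 or Trib3 against water.

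Atf3, a stress-inducible leucine zipper factor and known ATF4 target, was measured at chr1:192994547-192994606 (minus strand, mm9). Its level was -2.27 ± 0.44 with water (lowest -2.74, median -2.32, highest -1.66) and -1.86 ± 0.54 with glucose (lowest -2.53, median -1.69, highest -1.27). It was -2.04 ± 0.68 with fructose (lowest -2.78, median -2.18, highest -1.17) and -2.76 ± 0.38 in fasted mice (lowest -3.20, median -2.85, highest -2.12). All groups overlapped, and no comparison with water was called: -0.49 ± 0.29 for fasting (adjusted p = 0.185), 0.41 ± 0.29 for glucose (adjusted p = 0.662) and 0.22 ± 0.29 for fructose (adjusted p = 0.772). Fasted mice were lower than glucose mice by -0.90 ± 0.29 (adjusted p = 0.0135). The probe is dim, with background-corrected intensities of 33 to 150. This difference was called in 22 of 22 alternatives but ranged from -1.03 to -0.46 (adjusted p 0.00653 to 0.038). The lower level against fructose (-0.71 ± 0.29, adjusted p = 0.0472) lost its call in 10 of 22 alternatives (adjusted p 0.0192 to 0.132), among them those without fructose mouse 1, 3 or 6 or fasted mouse 1, 3, 4 or 5.

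Ddit3 codes for CHOP, a leucine zipper factor that endoplasmic reticulum stress induces and that promotes cell death. The brighter probe, whose target spans 304 bases of the genome (chr10:126732518-126732821, plus strand, mm9), had 0.44 ± 0.49 in water mice (lowest -0.31, median 0.57, highest 1.08) and 0.35 ± 0.37 in glucose mice (lowest -0.08, median 0.32, highest 0.98). Fructose mice had -0.02 ± 0.37 (lowest -0.29, median -0.15, highest 0.71) and fasted mice -0.64 ± 0.25 (lowest -0.88, median -0.66, highest -0.25). The highest fasted mouse lay just above the lowest water mouse.

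Fasting lowered Ddit3 2.12-fold (log2 -1.08 ± 0.21, adjusted p = 0.000207), and the dimmer probe, 879 bases away and designed to another transcript model, fell as well (-0.73 ± 0.15, adjusted p = 0.000379). With glucose the difference was -0.09 ± 0.21 (adjusted p = 0.931) and with fructose -0.47 ± 0.21 (adjusted p = 0.289) at the brighter probe. The dimmer probe gave 0.23 ± 0.15 (adjusted p = 0.623) and -0.17 ± 0.15 (adjusted p = 0.64). Fasted mice were below glucose mice at both probes without overlap, by -0.99 ± 0.21 (adjusted p = 0.000486) and -0.96 ± 0.15 (adjusted p = 1.49e-05). Against fructose they were lower by -0.62 ± 0.21 (adjusted p = 0.0205), a call lost without fructose mouse 5 (adjusted p = 0.0646). The dimmer probe was also lower against fructose, by -0.56 ± 0.15 (adjusted p = 0.00422).

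Asns codes for asparagine synthetase, which makes asparagine from aspartate and glutamine. Its brighter probe (chr6:7625171-7625228, minus strand, mm9) had 0.60 ± 0.89 in water mice, with a lowest value of -0.76, a median of 0.70 and a highest of 1.57. Glucose mice had 2.36 ± 0.48 (lowest 1.65, median 2.29, highest 3.08), fructose mice 1.67 ± 0.94 (lowest 0.80, median 1.34, highest 3.42) and fasted mice 2.82 ± 0.76 (lowest 1.59, median 3.05, highest 3.70). Every glucose and every fasted mouse lay above the highest water mouse, and the fructose group overlapped with it.

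Fasting raised Asns 4.66-fold (log2 2.22 ± 0.43, adjusted p = 0.000218). The difference was 1.76 ± 0.43 with glucose, a factor of 3.38, and missed the threshold (adjusted p = 0.0583). It was called in 5 of 22 alternatives, among them the analysis without water mouse 3, with adjusted p from 0.0363 to 0.154. With fructose it was 1.07 ± 0.43 (interval 0.17 to 1.97, adjusted p = 0.229). The dimmer probe, well above background on 5 of 6 water arrays and on all others, gave 2.18 ± 0.50 (adjusted p = 0.00102), 1.82 ± 0.50 (adjusted p = 0.0943) and 1.11 ± 0.50 (adjusted p = 0.283) for fasting, glucose and fructose. With normexp background correction these became 1.1, 0.83 and 0.45. Without fructose mouse 2 the fructose difference was 0.72 at the brighter and 0.71 at the dimmer probe.

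Fasted and glucose mice differed in Asns by 0.46 ± 0.43, with an interval from -0.44 to 1.36 (adjusted p = 0.418). Fasted mice exceeded fructose mice by 1.15 ± 0.43 (adjusted p = 0.0352), a call that 11 of 22 alternatives did not keep, the fit with the replicate number as a block among them (adjusted p 0.0036 to 0.0878). It was also lost without fructose mouse 3, 4, 5 or 6 or fasted mouse 1, 2, 4 or 5. The dimmer probe was not called in that comparison (1.06 ± 0.50, adjusted p = 0.0878). Within each of the 3 slides, which hold 2 arrays of every group, the mean of Asns was above water under all treatments. At the brighter probe it was so by 1.91 to 2.75 with fasting, 1.07 to 2.46 with glucose and 0.93 to 1.15 with fructose. The dimmer probe gave 1.53 to 3.07, 1.13 to 2.96 and 0.45 to 1.45. On slide 2 the fructose mice had 3.42 and 1.14 at the brighter probe and the water mice 1.44 and 0.87.

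Chac1 codes for an enzyme that breaks down glutathione. At chr2:119179990-119180049 (plus strand, mm9) water mice had 1.84 ± 0.58 (lowest 0.85, median 1.95, highest 2.55) and glucose mice 2.68 ± 0.35 (lowest 2.11, median 2.79, highest 3.00). Fructose mice had 2.05 ± 0.51 (lowest 1.35, median 2.17, highest 2.54) and fasted mice 1.12 ± 0.96 (lowest 0.19, median 0.87, highest 2.79). The fasted group was the most spread, since its highest mouse lay above every water mouse and its lowest below every water mouse.

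No Chac1 difference from water was called: -0.72 ± 0.35 with fasting (adjusted p = 0.11), 0.84 ± 0.35 with glucose (adjusted p = 0.355) and 0.21 ± 0.35 with fructose (adjusted p = 0.841). The fasting difference was called when water mouse 1 or fasted mouse 2 was left out, and without fasted mouse 2 it was -1.05 (adjusted p = 0.00565). Chac1 was 2.95-fold lower in fasted than in glucose mice (-1.56 ± 0.35, adjusted p = 0.000884). The difference from fructose mice (-0.93 ± 0.35, adjusted p = 0.0365) lost its call in 10 of 22 alternatives (adjusted p 0.00122 to 0.0997), among them those without fructose mouse 1, 2, 3 or 4 or fasted mouse 1, 3, 5 or 6.

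Trib3 codes for a pseudokinase that binds AKT and ATF4. At chr2:152163161-152163220 (minus strand, mm9) its level was 0.64 ± 0.31 in water mice (lowest 0.34, median 0.60, highest 1.16) and 1.01 ± 0.41 in glucose mice (lowest 0.52, median 1.03, highest 1.52). It was 0.73 ± 0.48 in fructose mice (lowest 0.21, median 0.66, highest 1.54) and 2.68 ± 0.32 in fasted mice (lowest 2.47, median 2.58, highest 3.32). The fasted mice lay above all fed mice, and the 3 fed groups overlapped.

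Fasting raised Trib3 4.13-fold (log2 2.05 ± 0.21, adjusted p = 6.37e-08). Glucose and fructose differed from water by 0.37 ± 0.21 (interval -0.07 to 0.82, adjusted p = 0.561) and 0.09 ± 0.21 (interval -0.36 to 0.53, adjusted p = 0.898). Fasted mice exceeded glucose mice by 1.68 ± 0.21 (adjusted p = 9.91e-07) and fructose mice by 1.96 ± 0.21 (adjusted p = 1.12e-07).

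Ddit4 codes for REDD1, which restrains mTORC1. Its level at chr10:59412486-59412545 (minus strand, mm9) was 4.46 ± 0.54 with water (lowest 3.48, median 4.59, highest 4.96), 4.17 ± 0.90 with glucose (lowest 2.88, median 4.40, highest 5.31) and 4.19 ± 0.63 with fructose (lowest 3.66, median 3.88, highest 5.12). In fasted mice it was 6.63 ± 1.1 (lowest 5.46, median 6.21, highest 8.19). Every fasted mouse again lay above every fed mouse.

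Ddit4 rose 4.48-fold with fasting (log2 2.16 ± 0.45, adjusted p = 0.000432). It differed from water by -0.30 ± 0.45 with glucose (adjusted p = 0.88) and -0.27 ± 0.45 with fructose (adjusted p = 0.836). The intervals of these differences ran from -1.23 to 0.64 and from -1.21 to 0.66. Fasted mice exceeded glucose mice 5.50-fold (2.46 ± 0.45, adjusted p = 0.000101) and fructose mice 5.41-fold (2.44 ± 0.45, adjusted p = 0.000115). Within single slides, 2 arrays against 2, the rise of Ddit4 with fasting was 1.16, 3.30 and 2.02, the same direction on each. The highest fasted mice, 2 and 5 (8.19 and 7.77), were on slide 2. Slide and mouse cannot be told apart in these sizes.

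Sesn2 codes for a leucine sensor that also restrains mTORC1. At chr4:132048858-132048917 (minus strand, mm9) water mice had 0.49 ± 0.09 (lowest 0.34, median 0.50, highest 0.62), glucose mice 0.63 ± 0.14 (lowest 0.50, median 0.59, highest 0.80) and fructose mice 0.47 ± 0.13 (lowest 0.27, median 0.52, highest 0.63). Fasted mice had 1.44 ± 0.21 (lowest 1.26, median 1.41, highest 1.84). As with Trib3 and Ddit4, no fasted mouse overlapped with a fed mouse.

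Sesn2 rose 1.93-fold with fasting (log2 0.95 ± 0.09, adjusted p = 8.43e-09). Its differences from water were 0.14 ± 0.09 with glucose (adjusted p = 0.597) and -0.02 ± 0.09 with fructose (adjusted p = 0.955). Fasted mice exceeded glucose mice by 0.81 ± 0.09 (adjusted p = 7.97e-08) and fructose mice by 0.97 ± 0.09 (adjusted p = 5.61e-09). The mice of a group lay close together, with SDs of 0.09 to 0.21 in the 4 groups.

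**Figure D3:**
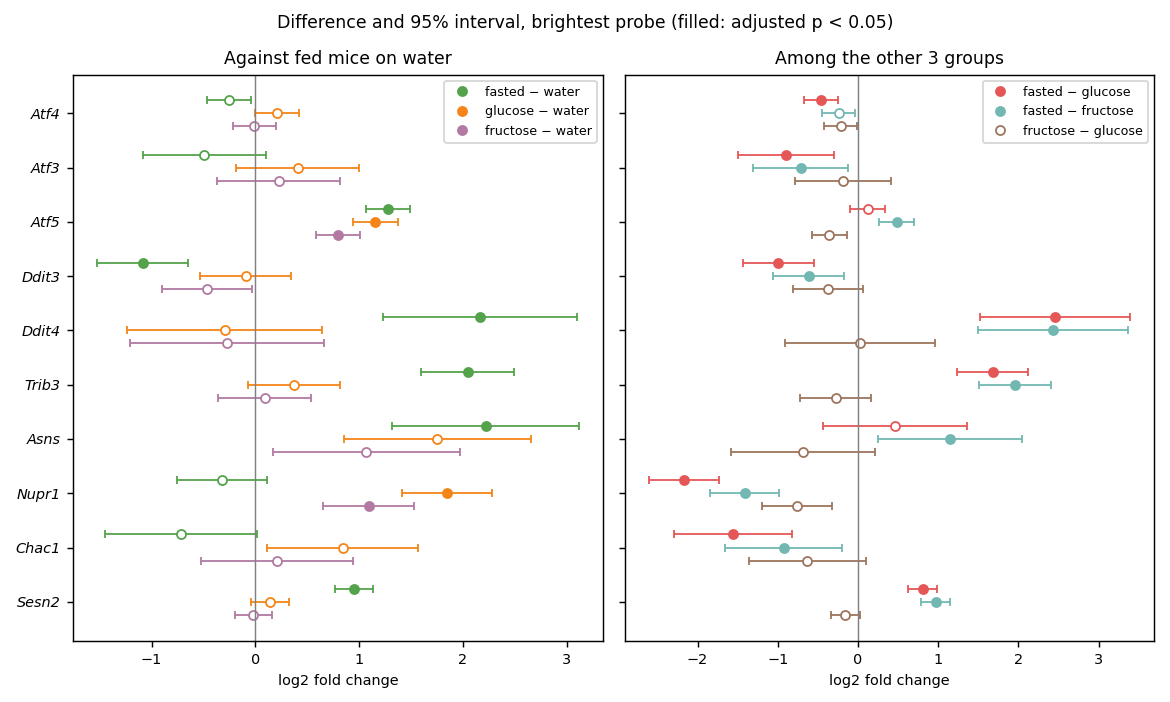
Log2 fold change of the 10 genes (horizontal axis) with 95% intervals, against water on the left and among the other groups on the right; filled points have an adjusted p under 0.05 in the limma fit. Atf5 is filled in all 3 comparisons on the left, Nupr1 with both sugars, and the fasted comparisons on the right hold filled points on both sides of 0.

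The direct comparisons of fasted with sugar mice split the genes. Against glucose, 8 of 10 were called, where 44.2% of all probes were: Trib3, Ddit4 and Sesn2 were higher in fasted mice (22.4% of all probes were), and Atf4, Atf3, Ddit3, Nupr1 and Chac1 were lower (21.8%). The 2 that were not called, Atf5 and Asns, are those whose brighter probe stood above water without overlap in both groups. The dimmer Asns probe overlapped with water in both groups. Against fructose, 9 of 10 were called, where 44.4% of all probes were: Atf5, Asns, Trib3, Ddit4 and Sesn2 were higher (22.7% of all probes) and Atf3, Ddit3, Nupr1 and Chac1 lower (21.7%). Fasted mice stood apart from glucose mice without overlap for 3 genes higher (13% of all probes) and 3 lower (12.2%), and from fructose mice for 4 higher (11.5%) and 1 lower (11.2%). The calls of Asns, Atf3 and Chac1 against fructose were the ones lost in many alternatives. All these counts are by the brighter probe, and the dimmer Nupr1 probe was called higher in fasted mice in both comparisons.

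Between the sugars the limma fit called 0 of the 10 genes and 0 of 36229 probes, a share of 0%. At an unadjusted p under 0.05 there were 3 of the 10 genes (Atf4, Atf5 and Nupr1) and 2935 probes (8.1%). Their differences, fructose minus glucose, were -0.22 for Atf4, where the groups did not overlap (0.265% of all probes were lower without overlap), -0.36 for Atf5 and -0.76 for Nupr1. The dimmer Atf4 probe had 0.04 with overlapping groups (adjusted p = 0.961), and the dimmer Nupr1 probe 0.15 (adjusted p = 0.795). The interval of the Nupr1 difference ran from -1.19 to -0.32. The median over the 10 genes was -0.32, against 0.00 over all probes.

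Some mice were high or low in many of the 10 genes. Fasted mouse 2 was the highest of its group in 6 genes and fasted mouse 3 the lowest in 5. Glucose mouse 6 was the highest in 5 and glucose mouse 5 the lowest in 5. The shares of all probes at which these mice ranked so are not given, so the counts do not set the 10 genes apart. The groups are each spread over all 3 slides, and of the 11 probes called in fasted against water mice 10 had the same sign within every slide. All 3 probes called with glucose, and all 3 with fructose, kept their sign in every slide.

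The kinases of eIF2 and other genes of its control were also measured, as a list of 14 genes. With fasting 3 rose and 4 fell (median -0.09), 7 of 14 where 42.1% of all probes were called. Eif2ak3, the gene of PERK, fell (-1.28 ± 0.13, adjusted p = 3.31e-08) and so did Eif2ak4, the gene of GCN2 (-0.40 ± 0.08, adjusted p = 0.000262). Eif2ak1, the gene of the heme-regulated kinase, rose by 0.27 ± 0.06 (adjusted p = 0.000698), and Ppp1r15a, whose product helps to remove the phosphate from eIF2, by 0.34 ± 0.11 (adjusted p = 0.0172). In the limma fit 0 of the 14 were called with glucose and 0 with fructose. An unadjusted p under 0.05 was found for 3 and 1, where 11.1% and 15.3% of all probes had one.

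Of 30 other known ATF4 targets 29 were measured (Slc7a11 was not bright enough). Fasting raised 6 and lowered 9 (median -0.01), where 21.7% of all probes rose and 20.4% fell. Glucose raised 11 and lowered 0 (median 0.31), where 0.409% rose and 0.356% fell. Fructose raised 4 and lowered 0 (median 0.20), where 0.486% rose and 0.323% fell. All 4 raised by fructose were also raised by glucose. Fgf21, the hormone gene, was the 1 target raised under all 3 treatments, by 4.63 ± 0.50 with fasting (adjusted p = 1.04e-07), 4.41 ± 0.50 with glucose (adjusted p = 2.7e-05) and 3.45 ± 0.50 with fructose (adjusted p = 0.00137). In this it resembled Atf5 among the 10 genes. The shares of all probes with such joint calls are not given, and they cannot exceed the 0.409% that rose with glucose.

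Psat1, an enzyme of serine synthesis, rose by 3.63 ± 0.31 with glucose (adjusted p = 1.09e-06) and 2.72 ± 0.31 with fructose (adjusted p = 7.96e-05) and fell by 1.1 with fasting (adjusted p = 0.00591). Phgdh, the first enzyme of serine synthesis, rose by 3.36 ± 0.35 with glucose (adjusted p = 1.23e-05) and 2.12 ± 0.35 with fructose (adjusted p = 0.00546) and differed by -0.68 ± 0.35 with fasting (adjusted p = 0.129). The mitochondrial folate enzyme Mthfd2 rose by 1.33 ± 0.21 with glucose (adjusted p = 0.00188) and fell with fasting (-1.02 ± 0.21, adjusted p = 0.000373). In all, 5 targets were raised by glucose and lowered by fasting: Psat1, Mthfd2, Aldh18a1, Psph and Cars. The share of all probes with both calls is not given, and it cannot exceed the 0.409% that rose with glucose.

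Other targets rose with fasting, as Trib3, Ddit4 and Sesn2 did. Cth, which makes cysteine from cystathionine, rose by 2.32 ± 0.17 with fasting (adjusted p = 2.6e-10) and differed by -0.53 ± 0.17 with glucose (adjusted p = 0.177). Gpt2, an alanine aminotransferase, rose by 1.29 ± 0.08 with fasting (adjusted p = 2.52e-11) and differed by -0.13 ± 0.08 with glucose (adjusted p = 0.593). Wars, a tRNA synthetase, fell by 1.08 with fasting (adjusted p = 1.15e-08).

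**Figure D4:**
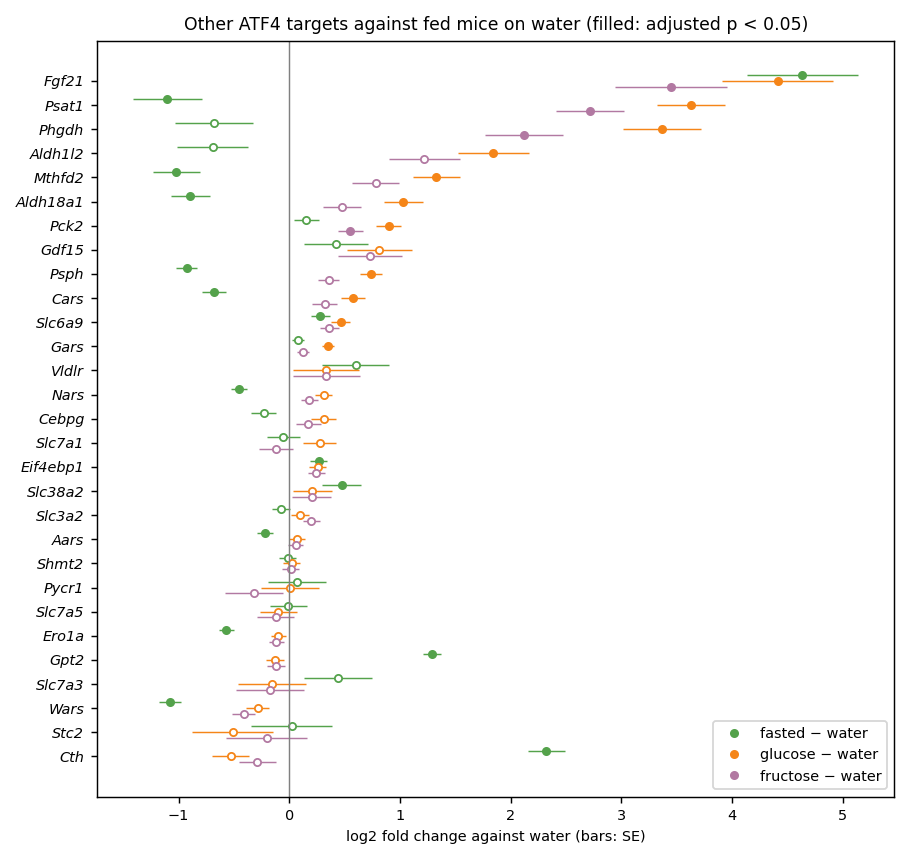
Log2 fold change against water (horizontal axis) of the 29 other ATF4 targets measured, in the order of their glucose difference; bars are standard errors and filled points have an adjusted p under 0.05 in the limma fit. Fgf21 is filled for all 3 treatments, Psat1 lies at 3.63 with glucose and at -1.1 with fasting, and Cth lies at 2.32 with fasting.

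The unfolded protein response outside ATF4 fell with fasting, like Ddit3. All 14 genes of that list were lower (median -1.47), where 20.4% of all probes fell: the chaperone gene Hspa5 by -1.71 ± 0.14 (adjusted p = 1.11e-09), Manf by -3.02 ± 0.17 (adjusted p = 6.38e-12) and Sdf2l1 by -3.90 ± 0.23 (adjusted p = 8.98e-12). Fructose lowered 5 of them, where 0.323% of all probes fell, Hspa5 among them (-0.73 ± 0.14, adjusted p = 0.0129), with a median of -0.52. With glucose 0 were called in the limma fit and the median was -0.28. At an unadjusted p under 0.05 there were 7 with glucose, where 11.1% of all probes were.

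Of 26 partners and relatives among leucine zipper factors, fasting raised 11 and lowered 3, where 21.7% of all probes rose and 20.4% fell. Junb rose by 1.55 ± 0.12 (adjusted p = 5.58e-10), Cebpd by 1.43 ± 0.15 (adjusted p = 6.15e-08) and Cebpb, a dimer partner of ATF4, by 0.74 ± 0.17 (adjusted p = 0.000952), while Xbp1 fell by 1.13 (adjusted p = 6.13e-08). Maff was the 1 gene called with glucose (0.68 ± 0.16, adjusted p = 0.0429) and rose with fasting too (1.44 ± 0.16, adjusted p = 1.19e-07). With fructose 0 were called in the limma fit, and 4 had an unadjusted p under 0.05, where 15.3% of all probes had one.

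Of 7 paralogues of the genes described, 2 rose and 3 fell with fasting, where 21.7% of all probes rose and 20.4% fell. Sesn1 rose by 0.55 ± 0.15 (adjusted p = 0.00412) beside Sesn2, while Sesn3 fell by 0.50 (adjusted p = 4.75e-05). Trib1 rose by 0.44 ± 0.09 (adjusted p = 0.000397), and Ddit4l fell by 0.84 (adjusted p = 0.00949) where Ddit4 rose. With either sugar 0 of the 7 were called in the limma fit. An unadjusted p under 0.05 was found for 0, where 11.1% (glucose) and 15.3% (fructose) of all probes had one. Of 20 genes of mTORC1 control, fasting raised 9 and lowered 6, against the same shares of all probes, with Fnip1 at 0.65 ± 0.12 (adjusted p = 0.000181) and Castor2 at -0.61 ± 0.13 (adjusted p = 0.000477). With glucose and with fructose 0 of the 20 were called. An unadjusted p under 0.05 was found for 2 and 3 of them, near the shares of 11.1% and 15.3% of all probes.

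Likeness was measured over all 24 arrays as the root mean square difference of the centred log2 levels, among 15402 genes with a symbol. Nearest to Atf5 were Ulk1 (0.297), Ppfibp1 (0.324) and Pir (0.339), where Atf5 itself varied by 0.526 about its mean. Nearest to Nupr1, which varied by 0.933, were Mthfd2 (0.429), Psph (0.497) and Aldh18a1 (0.506), all from the list of other ATF4 targets. Nearest to Ddit3 were Piga (0.227), Dnajb9 (0.252) and Ccdc134 (0.274), of which Dnajb9 is in the unfolded protein list.

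For Trib3 the nearest genes were Slc25a27 (0.280), Ccng2 (0.329) and Pla2g7 (0.334). For Ddit4 they were Srrm4 (0.554), Tmprss2 (0.602) and the clock gene Arntl (0.615). For Sesn2 they were Cnppd1 (0.129), Xpa (0.130) and Wbp1l (0.144). Asns, which varied by 1.1 about its mean, had the loosest neighbours, Mkln1os (0.683), Dmrt2 (0.719) and Mmd2 (0.761), with Atf5 at rank 5 (0.777). Among the ranks from these 7 members to the other genes described, the next were Trib3 at rank 108 from Ddit4 and Sesn2 at rank 137 from Asns. Likeness from Atf4, Atf3 and Chac1 was not computed.

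Of 60 cell type markers measured, 23 (38.3%) were called with fasting, where 42.1% of all probes were. The hepatocyte list had 1 gene higher and 1 lower of 10. Of 8 Kupffer cell markers 2 rose, of 8 stellate markers 1 rose and 3 fell, and of 8 endothelial markers 3 rose and 3 fell. Of 6 cholangiocyte markers 3 fell, and their summed level was 1.86 to 3.26 in fasted and 2.83 to 3.52 in water mice. Of 6 lymphocyte markers measured 3 fell. Of 5 neutrophil markers 1 was called lower and 0 higher. Their median difference was 1.02, however, and 3 had an unadjusted p under 0.05, where 48.3% of all probes had one. Their summed levels were 1.30 to 4.59 in fasted and 1.66 to 2.10 in water mice.

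Among 5 adipocyte markers Adipoq was called higher (adjusted p = 0.00645). It was well above background on all 6 fasted arrays and on 1 of 6 water arrays, so no size is given. Of 7 pancreatic acinar markers 4 were measured, and Cpa1, Prss2 and Pnlip were not bright enough. Cela1 was lower in fasted mice by -1.60 ± 0.23 (adjusted p = 3.93e-06), and the summed level of the acinar list was 3.84 to 4.57 in fasted and 5.11 to 5.36 in water mice. With the sugars, the hepatocyte marker Apoa1 (-0.37 with fructose, adjusted p = 0.0284) was the single marker called. At an unadjusted p under 0.05 there were 6 of 10 hepatocyte markers with fructose (median -0.14), where 15.3% of all probes were. The summed level of the hepatocyte markers was 13.0 to 13.1 with fructose and 13.1 to 13.4 with water. The part of these markers in the changes of the 10 genes was not tested, and in whole liver fewer cells of a type and less RNA per cell cannot be told apart.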

How the data were processed

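Liver RNA of 24 mice was measured on 1-colour Agilent arrays. Per the file headers, Agilent Feature Extraction 10.10.1.1 wrote for each spot a background-corrected intensity, not normalized between arrays. The authors' deposited table gives log2 values of 35967 probes, with normalization not given in the sources used here. Its scale is log2 by its values, and it served only as an alternative. The submitters' processing notes also name limma.

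Control spots and 2196 spots with outlier flags were left out. The log2 intensity minus the array's 75th percentile was averaged per probe. Probes well above background on at least 6 of 24 arrays were kept, 36229 of 56605. limma 3.58.1 in R 4.3.3 (lmFit, eBayes) fitted group means to all 24 arrays, with 6 comparisons. A gene counts by its probe with the highest mean. The GRCm38.p6 table gave names to kept probes, 23508 through an accession, 5694 through a symbol and 289 through a synonym, while 6738 kept the array's name. Probe positions are mm9, and no annotation of that build was used. Precision is set by how many arrays there are.

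The members and gene lists were chosen with earlier results of these data known, so no list is independent evidence of its direction. All members were named, and from each list chiefly the called genes with the largest change in each comparison with water. Cars, Cebpb, Eif2ak4, Eif2ak1, Ppp1r15a and some other list genes were named after their values were seen. The 3 genes nearest to each member called against water were named. The steps were tested on simulated data. Alternatives covered normalization, background correction, the deposited table, the filter, 1 probe per gene, blocks by replicate number and slide, the samples fitted, single slides and leaving out each array.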

Additional observations from a re-analysis of the deposited data

Results flagged for a closer look

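Of 60 combinations of probe and group, 5 held a mouse far from the others of its group, measured as the gap to the nearest mouse over the group's range. Chance gives about 1 in 20, or 3 of 60. Fasted mouse 2 was the highest of its group for Trib3, at 3.32 with the next at 2.66 (ratio 0.776), and for Sesn2, at 1.84 with the next at 1.45 (ratio 0.67). Without this mouse, the fasting rise was 1.92 for Trib3 (limma adjusted p = 2.03e-07), 0.87 for Sesn2 (adjusted p = 4.71e-09) and 1.85 for Ddit4 (adjusted p = 0.00134).

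Fructose mouse 5 was the highest of its group at the brighter Ddit3 probe, at 0.71 with the next at 0.01 (ratio 0.702). Glucose mouse 6 was the highest at the dimmer Atf4 probe, at 2.96 with the next at 2.83 (ratio 0.641). Water mouse 3 was the lowest at the dimmer Nupr1 probe, at -3.96 with the next at -3.57 (ratio 0.664).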

How the results depend on the processing

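Of 41 called differences of the 15 probes, 34 kept their call and direction in every alternative with a test, and of 49 not called, 44 were called in none. With 1 array left out, the number of the 10 genes called ranged from 6 to 8 for fasting against water, 2 to 3 for glucose, 2 to 2 for fructose, 0 to 0 for fructose against glucose, 8 to 8 for fasting against glucose and 6 to 9 for fasting against fructose. In a fit on the arrays compared alone, fructose called 1 gene, where Nupr1 was lost. Over all probes the counts of the sugar comparisons moved more. Glucose called 277 probes, and 138 with the array median subtracted, 143 with no filter and 431 in a fit on the arrays compared alone. Fructose called 293, and 110, 106 and 102 under the same settings, 842 with normexp and 498 in the authors' deposited table. Fructose against glucose called 7 with normexp.

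Leaving out 1 array gave 14199 to 15354 probes for fasting against water, 146 to 219 for glucose, 94 to 522 for fructose, 0 to 2 for fructose against glucose, 14867 to 16001 for fasting against glucose and 14922 to 15994 for fasting against fructose. For glucose the lowest count came without water mouse 4 (146). Counts from 149 to 183 came without water mouse 1, 2 or 5 or glucose mouse 1, 2 or 6. For fructose the count was 94 without water mouse 4 and 522 without fructose mouse 4. It was 103 to 195 without water mouse 1, 2, 5 or 6 or fructose mouse 1, 3 or 6. Without glucose mouse 3, fructose against glucose called 2. The background shares of the sugar comparisons rest on these counts, and the cause was not tested. The median over all probes moved by at most 0.0408 under another scaling or background correction, and by 0.043 with no filter.

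With slide as a block, 7 of the 10 genes were called for fasting against water and 10 for fasting against fructose, the gene gained being Atf4 in both. On slide 2 alone (2 arrays against 2, no test) the fasting difference of the dimmer Atf4 probe was 0.12 and the Chac1 difference of fasted and fructose mice 0.13, both turned in sign, and the cause was not tested. With the replicate number as a block, 6, 2 and 2 of the 10 genes were called for fasting, glucose and fructose against water, and 8 for fasting against fructose. The block took the call from Asns in fasted against fructose mice and from the dimmer Atf4 probe in fasted against water mice, and from no other probe. The numbers are not known to pair the mice: deviations of same-numbered arrays correlated at 0.031 on average (-0.153 to 0.209, with 9 of 36 above 0.1), and 7 of 24 arrays matched best with their own number.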
